A study of Homo sapiens with 6 samples.

Results

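The E2F transcription factors E2F1 to E2F8 and the pocket proteins RB1 and RBL1 were followed in HEK-293T cells given nitidine chloride. The 10 genes were taken by symbol from the deposited expression table, 8 of them E2F genes and 2 of them RB family genes, out of 50868 genes listed. HEK-293T is a transformed human embryonic kidney line, labelled wild type, and all libraries came from that line. In the control group the medium held DMSO, the solvent, for 12 h, and in the treated group it held nitidine chloride, a benzophenanthridine alkaloid, at 10 µM for the same 12 h. Each group had 3 libraries of mRNA. The labels do not say whether the libraries of a group came from separate cultures, so the p-values measure only the spread between these libraries, which may be technical. The line carries adenovirus E1A and SV40 large T antigen, viral proteins that bind RB family proteins, which limits it as a model of RB control.

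E2F proteins bind promoters of cell cycle genes, mostly together with a DP partner. E2F1, E2F2 and E2F3 are classed as activators, E2F4, E2F5 and E2F6 as repressors, and E2F7 and E2F8 as atypical repressors that bind DNA without a DP partner. Pocket proteins, RB1 (pRB) and RBL1 (p107), hold E2F factors inactive until cyclin-dependent kinases phosphorylate them at the G1/S transition, and several E2F and pocket protein genes are themselves E2F targets.

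E2F1, E2F2 and E2F7 rose after nitidine chloride, RB1, RBL1 and E2F3 fell, and E2F4, E2F5, E2F6 and E2F8 did not pass the test. The test was edgeR's quasi-likelihood test with a Benjamini-Hochberg adjusted p threshold of 0.05. All 10 genes passed the filter on low counts, a mean of at least 10 counts per library. Thus 6 of the 10 were called, and over all 15953 tested genes 51.7% were called. By direction, 3 members were higher, against 24.7% of all tested genes, and 3 were lower, against 27.0%. The groups of 3 libraries did not overlap for 6 members, against 60.7% of all tested genes. These shares lie near the background, so the number of members called is not a result about the family. In edgeR's test against a 1.5-fold change 2 members were called, E2F2 and RB1, against 17.8% of all tested genes. The direction and size for each member are what the values below describe.

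The promoters of the 5 called members with a RefSeq window at their gene start are shown because many promoters of this family are known to be bound by E2F factors themselves. Each line gives the 250 bases before the RefSeq start (GRCh38.p14) in the direction of the gene, 5′ to 3′, with exact E2F matches in capitals. Exact matches were searched on both strands. The search covered TTCCCGC and, as a further form of the E2F site, TTGGCGC. It also covered TTCGCGC and, as the last form searched, TTGCCGC. A match on the opposite strand appears as its reverse complement. The windows are E2F1 at chr20:33686386-33686635 on the minus strand, E2F2 at chr1:23531234-23531483 on the minus strand, E2F7 at chr12:77065570-77065819 on the minus strand, the E2F3 start nearest to the table's gene start at chr6:20401629-20401878 on the plus strand, and RBL1 at chr20:37095998-37096247 on the minus strand.
E2F1: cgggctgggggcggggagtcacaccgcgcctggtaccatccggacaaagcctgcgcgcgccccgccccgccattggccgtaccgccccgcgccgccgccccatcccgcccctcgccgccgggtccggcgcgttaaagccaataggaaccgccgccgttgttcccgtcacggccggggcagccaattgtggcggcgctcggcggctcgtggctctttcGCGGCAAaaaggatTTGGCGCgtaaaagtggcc
E2F2: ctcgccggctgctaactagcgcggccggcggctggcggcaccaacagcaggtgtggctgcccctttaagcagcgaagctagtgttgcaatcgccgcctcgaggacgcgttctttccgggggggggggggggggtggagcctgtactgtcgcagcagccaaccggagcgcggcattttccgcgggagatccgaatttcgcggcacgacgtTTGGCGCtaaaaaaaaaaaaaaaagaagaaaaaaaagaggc
E2F7: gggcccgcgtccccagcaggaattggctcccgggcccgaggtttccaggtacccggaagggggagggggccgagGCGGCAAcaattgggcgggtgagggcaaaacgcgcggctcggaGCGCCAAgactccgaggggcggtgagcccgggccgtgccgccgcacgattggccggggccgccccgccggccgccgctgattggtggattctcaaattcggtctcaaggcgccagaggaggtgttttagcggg
E2F3 start 1: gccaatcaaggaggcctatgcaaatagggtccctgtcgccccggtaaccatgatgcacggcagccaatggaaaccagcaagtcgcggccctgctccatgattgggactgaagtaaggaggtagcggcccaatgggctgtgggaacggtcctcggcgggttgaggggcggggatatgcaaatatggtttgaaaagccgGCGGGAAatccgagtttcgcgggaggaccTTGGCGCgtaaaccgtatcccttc
RBL1: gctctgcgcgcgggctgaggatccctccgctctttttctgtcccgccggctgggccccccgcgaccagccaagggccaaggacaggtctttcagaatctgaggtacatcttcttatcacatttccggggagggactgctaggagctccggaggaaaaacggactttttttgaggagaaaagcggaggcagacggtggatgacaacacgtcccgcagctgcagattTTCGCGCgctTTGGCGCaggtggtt

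E2F matches stood before the start of the 3 genes that rose and of E2F3 and RBL1, which fell. RB1, which also fell, had no window at its gene start and was not read. In the E2F1 window the matches began 33 bases before the start, on the opposite strand, and 19 bases before it (positions -33 and -19, where -1 is the last base before the start). The E2F2 window had 1 match, at -41. RBL1 had TTCGCGC at -25 and TTGGCGC at -15, with 3 bases between them. E2F3 had matches at -53 and -24, and E2F7 had its matches farther out, at -176 and -133, both on the opposite strand. Windows of E2F4 and of the other E2F3 start, 1708 bases into the gene, held none, and E2F6 held 1, which began at position 15 of the transcribed side. With the 50 bases after the start included, 6 of 8 windows of 7 member genes held an E2F match, and of all 35116 windows of that length listed by RefSeq 13.0% did. For the 250 bases before the start the numbers were 5 of 8 windows and 10.9%. GC content of these 8 windows ran from 58.8% to 77.6%, against a median of 58.0% over all windows, and its part in the matches was not tested.

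CCAAT boxes (CCAAT on either strand) occurred 3 times in the E2F1 window, 4 times in that of E2F3 and 4 times in that of E2F7. These were 3 of the 8 windows, against 34.6% of all windows. The CHR element, searched as TTTGAA or TTCGAA, occurred in the E2F3 window, at -65, and in 16.4% of all windows. No motif of the search overlapped another in these windows. A match is a description of the letters and not a site of binding. E2F5 and E2F8 are not in the RefSeq promoter table, and the entry for RB1 lies 172699 bases into the gene and was not used.

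**Figure D1:**
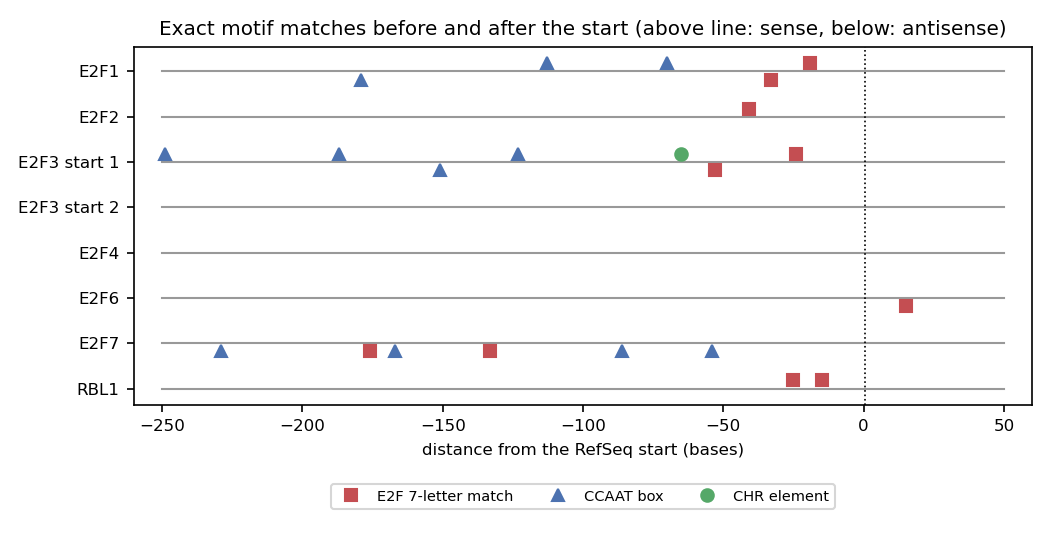
Positions of exact motif matches in the 8 RefSeq windows of 7 member genes. The horizontal axis is the distance from the RefSeq start in bases, squares are E2F matches, triangles CCAAT boxes and circles CHR elements, above the line on the gene's strand and below it on the opposite strand. E2F matches of E2F1, E2F2, E2F3 and RBL1 lie within the last 53 bases before the start, those of E2F7 farther out.

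Library totals ran from 12688093 to 16357992 counts, and the members had 259 to 2482 counts per library. Levels are CPM (counts relative to the library total) after TMM scaling, given for libraries 1 to 3 in turn, and means are ± SD with n = 3. A rise or fall is therefore relative to the other genes of a library and is not an amount of RNA per cell. Mitochondrial genes took 3.80% to 3.94% of counts in DMSO libraries and 3.39% to 3.46% in nitidine chloride libraries. Of 7 markers known for HEK-293T all were detected, and they summed to 463 to 480 CPM with DMSO and 497 to 537 CPM with nitidine chloride. Of these markers 5 were called higher and 1 lower, where 24.7% and 27.0% of all tested genes were. Markers of 3 other cell types were low and summed higher after treatment. The 6 fibroblast markers summed to 34.2 to 38.8 CPM with DMSO and 55.1 to 62.5 with nitidine chloride, with all 6 detected. Only 3 of them passed the filter on low counts, and COL1A2, DCN and PDGFRB did not. The 6 leukocyte markers summed to 3.90 to 5.58 and 6.56 to 7.25 CPM, with CD3E at 0, and the 5 endothelial markers to 1.42 to 2.09 and 4.54 to 5.61 CPM, with none at 0. Of the leukocyte markers 3 passed that filter, and of the endothelial markers 1 did. The part of these markers in the members' differences was not tested. In bulk RNA, fewer cells of a kind and less RNA per cell cannot be told apart.

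E2F2 had the highest fold change of the family. E2F2 (ENSG00000007968, chromosome 1, 23506430 to 23531220, minus strand), an activator of S-phase genes, stood at 62.6, 68.1 and 62.9 CPM with DMSO and at 108, 120 and 105 CPM with nitidine chloride. All 3 treated libraries lay above all 3 controls, with no overlap and with a gap far wider than the spread within either group. Its mean went from 64.6 ± 3.10 to 110.8 ± 8.12 CPM, 1.72-fold. The log2 fold change was 0.78 ± 0.07 (SE), and the adjusted p was 9.55e-05 by edgeR.

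E2F1 (ENSG00000101412, chromosome 20, 33675683 to 33686404, minus strand), the activator best known for also inducing cell death genes, stood at 81.9, 79.8 and 81.2 CPM with DMSO. With nitidine chloride it stood at 95.6, 113 and 99.4 CPM. Treated libraries were all above the controls, which differed little among themselves. E2F1 rose 1.27-fold, from 81.0 ± 1.09 to 102.5 ± 8.89 CPM. Its log2 fold change was 0.34 ± 0.07, with an adjusted p of 0.00624 (edgeR).

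E2F3 fell, and its libraries were the most scattered of the family. E2F3 (ENSG00000112242, chromosome 6, 20401906 to 20493715, plus strand), the activator whose RNAs start at separate promoters, stood at 155, 92.0 and 158 CPM with DMSO and at 31.7, 80.0 and 80.5 CPM with nitidine chloride. DMSO replicate 2 lay near the treated libraries, and nitidine chloride replicate 1 lay far below the other two. The groups did not overlap, by a gap between 92.0 and 80.5 CPM. Its mean went from 134.8 ± 37.0 to 64.0 ± 28.0 CPM. On the log2 scale the change was -1.07 ± 0.36 with a 95% confidence interval of -1.90 to -0.24 and an adjusted p of 0.0368 (edgeR). The call was lost without DMSO replicate 1 (adjusted p = 0.0911), without DMSO replicate 3 (adjusted p = 0.0976) and without nitidine chloride replicate 2 (adjusted p = 0.0516) in the same edgeR test, with log2 fold changes of -0.96, -0.95 and -1.26 in that order. It was also lost with the replicate number as a block (adjusted p = 0.0528, edgeR).

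With E2F3 lower and E2F1 and E2F2 higher, the counts of the activators summed to a similar level in both groups. E2F1 to E2F3 together stood at 299, 240 and 302 CPM with DMSO and at 235, 313 and 285 CPM with nitidine chloride, with overlapping groups. E2F1 and E2F2 alone summed to 145.5 ± 2.08 CPM with DMSO and 213.3 ± 16.7 CPM with nitidine chloride. Each of these genes rose without overlap, so their sum could not overlap either. Such sums give more weight to longer transcripts, since CPM is not scaled to length.

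**Figure D2:**
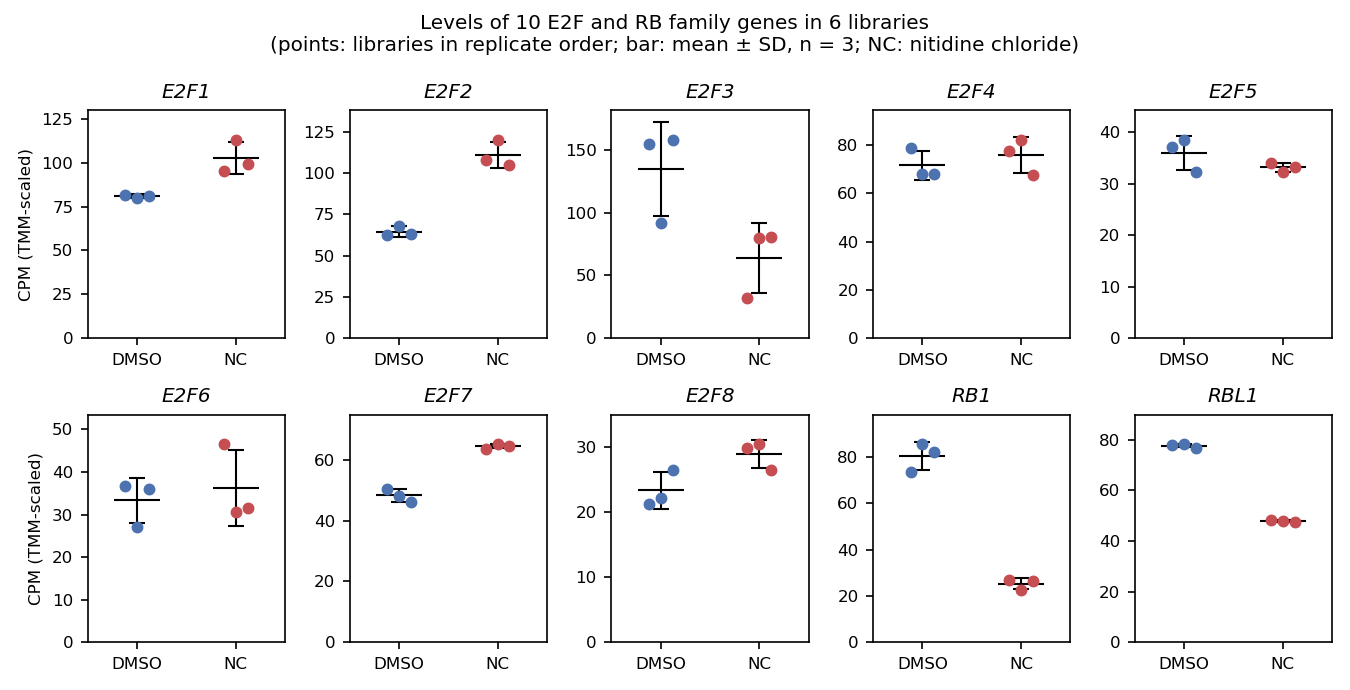
Levels of the 10 genes in each library. The vertical axis of each panel is CPM after TMM scaling and starts at 0 with its own range, points are libraries 1 to 3 from left to right, and bars are the mean ± SD of 3 libraries. E2F1, E2F2 and E2F7 sit higher with nitidine chloride, RB1 and RBL1 sit lower, and E2F3 is lower with widely spread points.

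Among the repressors E2F4, E2F5 and E2F6, none passed the test. E2F4 (ENSG00000205250, chromosome 16, 67192169 to 67198918, plus strand), which with RBL1 and RBL2 represses genes in resting cells, stood at 78.6, 68.1 and 67.9 CPM with DMSO and at 77.7, 82.1 and 67.7 CPM with nitidine chloride. Its groups overlapped. Its log2 fold change of 0.08 had a 95% confidence interval of -0.14 to 0.31 and an adjusted p of 0.493 (edgeR).

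E2F5 (ENSG00000133740, chromosome 8, 85177225 to 85217158, plus strand), the other factor that works mainly with p107 and p130, stood at 37.2, 38.5 and 32.3 CPM with DMSO and at 34.0, 32.2 and 33.3 CPM with nitidine chloride. Treated libraries fell within the spread of the controls or just under it. The log2 fold change was -0.12, with an interval of -0.33 to 0.09 and an adjusted p of 0.311 (edgeR). E2F5 shares exon sequence with RBIS on the opposite strand, which had 365 to 509 counts per library, close to E2F5's own 453 to 541. The strand setting of the counting is not given in the sources used here, so the value of E2F5 is uncertain.

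E2F6 (ENSG00000169016, chromosome 2, 11444375 to 11466177, minus strand), which represses without pocket proteins and works in a polycomb complex, stood at 36.7, 27.2 and 36.1 CPM with DMSO. With nitidine chloride it stood at 46.5, 30.6 and 31.5 CPM. Nitidine chloride replicate 1 was the highest library and DMSO replicate 2 the lowest, and the others were mixed. Its log2 fold change of 0.12 ± 0.19 (adjusted p = 0.629, edgeR) changed sign without either of these libraries, to -0.10 and -0.01 in the order named.

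The atypical factors E2F7 and E2F8 repress E2F1 and other E2F targets late in S phase. E2F7 (ENSG00000165891, chromosome 12, 77021247 to 77065580, minus strand) stood at 50.5, 48.2 and 46.1 CPM with DMSO and at 63.6, 65.0 and 64.6 CPM with nitidine chloride. Its treated libraries lay close together and above all controls. E2F7 rose 1.34-fold, from 48.3 ± 2.19 to 64.4 ± 0.728 CPM, with a log2 fold change of 0.42 ± 0.07 and an adjusted p of 0.00132 (edgeR).

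E2F8 (ENSG00000129173, chromosome 11, 19224063 to 19241620, minus strand) was the member nearest to the threshold. It stood at 21.3, 22.2 and 26.5 CPM with DMSO and at 29.8, 30.4 and 26.4 CPM with nitidine chloride. DMSO replicate 3 and nitidine chloride replicate 3 had almost the same level, so the groups overlapped, while the other libraries were apart. The log2 fold change was 0.31 ± 0.11, with a 95% confidence interval of 0.04 to 0.57 before adjustment and an adjusted p of 0.0523 (edgeR). Without DMSO replicate 3 the adjusted p was 0.0244 and without nitidine chloride replicate 3 it was 0.0414, in edgeR's test. Summed, E2F7 and E2F8 stood at 71.6 ± 1.08 CPM with DMSO and 93.3 ± 2.18 CPM with nitidine chloride, with no overlap. The gap between groups in E2F7 was wider than the overlap in E2F8, so this sum could not overlap and adds nothing about E2F8.

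RB1 had the lowest fold change of the family. RB1 (ENSG00000139687, chromosome 13, 48303751 to 48481986, plus strand), the retinoblastoma tumour suppressor, stood at 73.6, 85.5 and 82.1 CPM with DMSO and at 27.0, 22.7 and 26.5 CPM with nitidine chloride. The highest treated library lay far below the lowest control. RB1 fell from 80.4 ± 6.15 to 25.4 ± 2.35 CPM, to 0.315 of its control level. The log2 fold change was -1.67 ± 0.10, with an adjusted p of 7.5e-06 (edgeR).

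RBL1 (ENSG00000080839, chromosome 20, 36996349 to 37095995, minus strand), which encodes p107, the pocket protein that rises with the cell cycle and pairs with E2F4, stood at 78.1, 78.2 and 76.9 CPM with DMSO and at 48.3, 47.8 and 47.6 CPM with nitidine chloride. Libraries of each group were almost identical, and the groups were far apart. RBL1 fell from 77.7 ± 0.728 to 47.9 ± 0.364 CPM, to 0.616 of its control level, with a log2 fold change of -0.70 ± 0.06 and an adjusted p of 4.68e-05 (edgeR). RBL2, which encodes p130, is described with the partners below and also fell. The sum of RB1 and RBL1 went from 158.1 ± 6.05 to 73.3 ± 2.52 CPM.

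**Figure D3:**
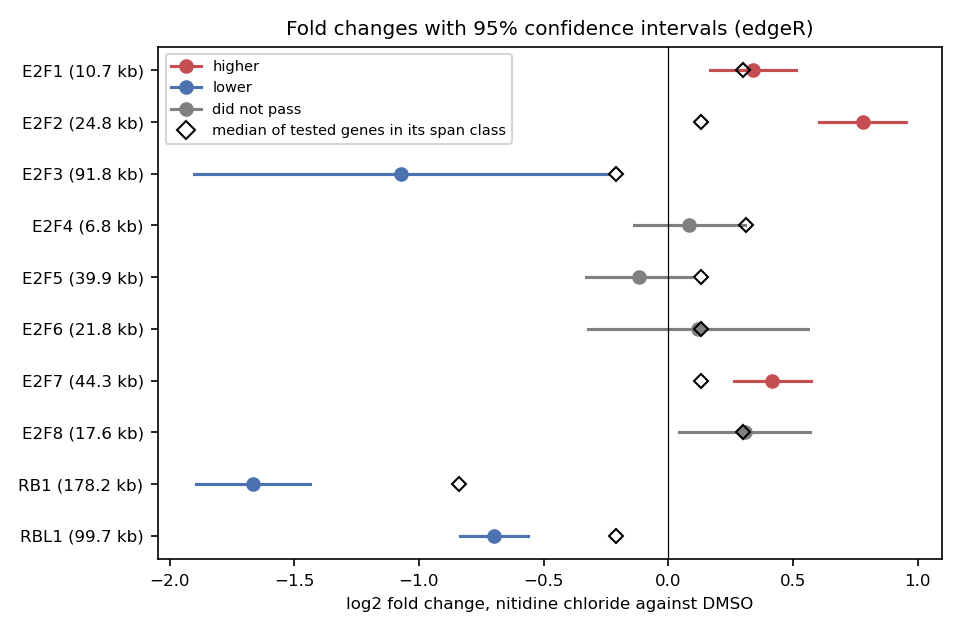
Log2 fold change of each member, nitidine chloride against DMSO, with 95% confidence intervals derived from edgeR's test and the genomic span in brackets. Diamonds mark the median of all tested genes in the same class of span. E2F2 lies 0.65 above its class median and RB1 0.82 below its own. RBL1 lies 0.35 kb from the edge of a class with a median of -0.84, and the interval of E2F3 is the widest, -1.90 to -0.24.

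Ratios of counts within a library do not depend on how libraries are scaled. The ratio of E2F2 to RB1 counts was 0.851, 0.797 and 0.766 in the DMSO libraries and 3.99, 5.29 and 3.96 in the nitidine chloride libraries, and its mean was 5.48 times as high after treatment. E2F1 to RB1 went from 1.11, 0.933 and 0.989 to 3.54, 4.96 and 3.76, a mean 4.04 times as high. E2F7 to RB1 was 4.23 times as high. In these 3 ratios the groups lay far apart. Each divides a member that rose without overlap by one that fell without overlap, so the separation follows from the members' own levels.

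Ratios to E2F3 were higher too: E2F2 to E2F3 was 4.02 times as high after treatment and E2F1 to E2F3 2.96 times, with no overlap but with the scatter of E2F3. E2F2 to RBL1 was 2.79 times as high and E2F1 to RBL1 2.05 times, again with no overlap. The ratios to E2F3 and RBL1 also divide a member that rose by one that fell, so their lack of overlap was given. E2F2 to E2F1 went from 0.797 ± 0.0491 to 1.08 ± 0.0392, so counts of E2F2 exceeded those of E2F1 in every treated library and in no control. RB1 to RBL1 went from 1.03 ± 0.0812 to 0.530 ± 0.0476, with no overlap. E2F3 to RB1 overlapped between groups, at 2.10, 1.08 and 1.92 with DMSO and 1.17, 3.53 and 3.04 with nitidine chloride.

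For levels between genes, counts were scaled to CPM per kb of merged annotated exons (GENCODE release 29). On that scale E2F1 stood highest with DMSO at 32.4 ± 0.437, then E2F3 at 26.1 ± 7.17 and E2F4, with 19.0 in its lowest library. RBL1 (13.0 ± 0.122), RB1 (12.5 ± 0.953) and E2F2 (11.8 ± 0.569) formed a middle group whose neighbours overlapped in their libraries. E2F6 (8.19 ± 1.31), E2F7 (7.66 ± 0.348), E2F5 (6.07 ± 0.550) and E2F8 (5.63 ± 0.668) were lowest. Within that order the libraries of E2F3 and E2F4, of E2F6 and E2F7, and of E2F5 and E2F8 also overlapped.

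With nitidine chloride, E2F1 was again highest per kb at 41.0 ± 3.55, and RB1 was lowest at 3.93 ± 0.364, below all libraries of E2F5 (5.59 ± 0.160). E2F4 (21.2 ± 2.07) and E2F2 (20.3 ± 1.49) overlapped and came after E2F1. E2F3 (12.4 ± 5.43), E2F7 (10.2 ± 0.115), E2F6 (8.90 ± 2.20) and RBL1 (8.04 ± 0.0611) followed, each overlapping its neighbour, and then E2F8 (6.97 ± 0.520). The order depends on the length used. The authors' FPKM rests on a longer length for genes with many transcripts, 2.60 times the merged exons for E2F4, and ranked RBL1 (11.3 ± 0.109 FPKM with DMSO) above E2F4 (7.41 ± 0.610). On the FPKM scale E2F1 was first in both groups, and with nitidine chloride RB1 (3.30 ± 0.362) and E2F5 (3.42 ± 0.156) were lowest, with overlapping libraries. In GENCODE 29 RB1 has other boundaries than in the deposited table, so its length per kb is less sure.

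Genomic span, the distance from gene start to gene end with introns, moved with the fold changes. Across the 10 members, which share their libraries, Spearman's rho between span and log2 fold change was -0.56, and across all 15953 tested genes it was -0.47. RB1 spans 178.2 kb, RBL1 99.6 kb and E2F3 91.8 kb, and these were the members with the longest spans and the 3 that fell. For tested genes of 100 to 200 kb the median was -0.84, and for those of 50 to 100 kb it was -0.21. In the class of RB1 75.0% of genes were lower by the same test, and in that of RBL1 and E2F3 39.8% were lower. RB1 lay below its class median by 0.82, E2F3 by 0.86 and RBL1 by 0.48, but these distances depend on the class edges. RB1 stood 0.34 above the median of its adjoining class, and E2F3 stood 0.23 below that of its own adjoining class. RB1 has other boundaries in GENCODE 29 than in the deposited table, so its span is less sure. RBL1 lies 0.35 kb under the edge at 100 kb and stood 0.14 above the median of the adjoining class. Against tested genes whose span lay within a factor of 0.8 of its own in either direction, a comparison added after the data had been seen, RBL1 lay 0.18 below the median of 1445 genes, and 35.3% of them were lower than it. In the same comparison RB1 lay 0.50 below the median of 870 genes, with 16.3% lower, and E2F3 0.64 below the median of 1467 genes, with 6.68% lower. Of these genes of similar span, edgeR called 81.4% lower than in DMSO for RB1, 60.1% for RBL1 and 56.1% for E2F3.

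Members with shorter spans were read against their classes in the same way. E2F2 (24.8 kb) lay 0.65 above the median of 0.13 for genes of 20 to 50 kb, and 91.5% of that class lay below it. Against the 1827 genes within a factor of 0.8 of its span it lay 0.57 above the median. E2F7 (44.3 kb) lay 0.28 above its class median and 0.40 above the median of 1915 genes of similar span. In the class of both, 30.8% of genes were higher. E2F1 (10.7 kb) lay 0.04 above the median of 0.30 for 10 to 20 kb, a class in which 44.2% of genes were higher, and E2F8 (17.6 kb) lay at it. E2F4 (6.75 kb) lay 0.22 below its class median of 0.31, E2F5 (39.9 kb) 0.25 below 0.13, and E2F6 (21.8 kb) 0.02 below 0.13. The classes were chosen with these data known, and the part of span in the differences was not tested.

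**Figure D4:**
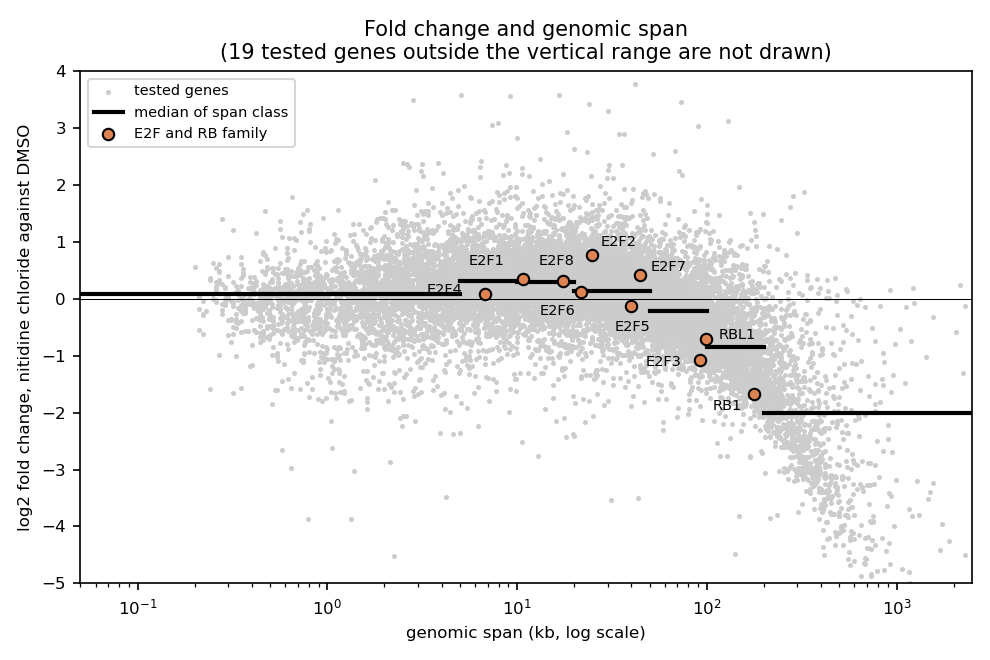
Log2 fold change, nitidine chloride against DMSO, against genomic span in kb on a log axis. Grey points are tested genes, black lines the medians of 7 span classes, and orange points the 10 members, with 19 genes outside the vertical range not drawn. E2F2 lies above its class median, and E2F3 and RB1 below theirs. RBL1, at the edge of 2 classes, lies between their medians of -0.21 and -0.84.

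By the rule for likeness, the genes whose pattern over the 6 libraries was nearest to that of E2F2 were SEPTIN3, a septin, ZNF473, a zinc finger protein of histone mRNA processing, and CREG1, a secreted glycoprotein. Their root mean square differences from E2F2 were 0.038, 0.0411 and 0.0415 in log2 CPM centred on the DMSO mean, among 4596 genes of similar level. They had log2 fold changes of 0.75, 0.79 and 0.77. Nearest to RB1 among 5490 genes were HMGA2, a DNA-bending chromatin protein, BMPR1A, a BMP receptor, and RAP1GDS1, a guanine nucleotide exchange regulator of small GTPases. Their differences were 0.0465, 0.0535 and 0.058, their log2 fold changes -1.69, -1.69 and -1.65, and their spans 142, 176 and 182 kb. For both members a similar fold change follows from the rule for likeness, so these fold changes are not a separate result.

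The DP partners and the remaining pocket protein fell. TFDP1, TFDP2 and RBL2 were lower, 3 of 3 tested of 4 listed against 27.0% of all tested genes, with a median log2 fold change of -0.82 against 0.01 over all tested genes, and TFDP3 had too few counts. TFDP2, a DP subunit that dimerises with E2F1 to E2F6, stood at 113, 102 and 105 CPM with DMSO and 48.2, 51.5 and 52.3 CPM with nitidine chloride. RBL2, the pocket protein of resting cells, stood at 94.3, 101 and 96.9 CPM and at 56.1, 51.2 and 58.2 CPM. Their log2 fold changes were -1.07 ± 0.07 and -0.82 ± 0.07, and that of TFDP1, the main DP subunit, was -0.42 ± 0.07, with adjusted p of 1.13e-05, 5.54e-05 and 0.00176 (edgeR). The groups did not overlap in any of the 3, against 60.7% of all tested genes without overlap. TFDP2 spans 205 kb, in a class in which 89.3% of genes were lower, and RBL2 (57.7 kb) and TFDP1 (56.8 kb) are in a class with 39.8% lower. RBL2 shares exon sequence with AKTIP on the opposite strand, which had fewer counts.

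The MuvB core joins E2F4 and p130 in the repressive DREAM complex and later binds B-MYB (MYBL2) and FOXM1 in activating complexes. Of this core and its mitotic partners 2 of 8 fell, none rose and 6 did not pass (median -0.14). That was 25.0% called, against 51.7% of all tested genes. LIN54, the DNA-binding subunit, fell with -0.47 ± 0.10 and LIN9 with -0.30 ± 0.09. FOXM1, a transcription factor of G2/M genes, stood at 105 ± 43.2 CPM with DMSO and 139 ± 6.35 CPM with nitidine chloride and did not pass. Of this list 1 gene was called without DMSO replicate 1, 2 or 3 or without nitidine chloride replicate 3, and 4 were called without nitidine chloride replicate 2.

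Of 19 cyclins, CDKs and inhibitors that act on RB, 6 rose, 2 fell and 11 did not pass (median 0.04). In all, 42.1% were called, against 51.7% of all tested genes. CDK6, the cyclin D kinase that phosphorylates pocket proteins, fell the most in this list, from 178 ± 3.42 to 41.1 ± 3.29 CPM. Its log2 fold change was -2.12 ± 0.07, with an adjusted p of 9.54e-07 (edgeR). CDK6 spans 232 kb, in the class of 200 kb or more, with a median of -2.0 and 89.3% of genes lower. CCNC, cyclin C, fell with -0.71 ± 0.20. CCND2, cyclin D2, rose with 0.75 ± 0.05 (adjusted p = 1.96e-05, edgeR) and CDKN2D, the p19 inhibitor of CDK4 and CDK6, rose with 0.75 ± 0.15. CDK4 stood at 205 ± 9.69 and 209 ± 41.7 CPM and did not pass.

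Among 49 G1/S genes known as E2F targets, 17 rose, 10 fell and 22 did not pass, with a median of 0.09 against 0.01 for all tested genes. Thus 55.1% of the list were called, near the 51.7% over all tested genes. The highest by the naming rule were GINS3, a subunit of the replicative helicase complex, with 0.69 ± 0.07, and CDT1, a licensing factor, with 0.63 ± 0.07. POLA1, the catalytic subunit of DNA polymerase alpha, stood at 163, 171 and 169 CPM with DMSO and 24.7, 24.4 and 24.3 CPM with nitidine chloride. POLA1 spans 303 kb, in the class of 200 kb or more, where 89.3% of genes were lower. UHRF1, a reader of hemimethylated DNA, fell with -0.54 ± 0.12. GINS3 spans 111 kb, in the class of 100 to 200 kb, where 2.65% of genes were higher and 75.0% lower. It shares exon sequence with a weakly counted gene on the opposite strand.

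Direction within the G1/S list also moved with span. Of its 19 genes under 20 kb, 10 rose and 0 fell, while 35.8% of all tested genes of that span rose and 8.80% fell. Of 22 genes of 20 to 50 kb, 6 rose and 5 fell, against 30.8% and 12.2%. Of 8 genes of 50 kb or more, 1 rose and 5 fell, against 6.09% and 61.1%.

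Of 10 cell death genes known as E2F1 targets, 3 rose, 1 fell and 6 did not pass (median 0.11). That was 40.0% called, against 51.7% of all tested genes. BIK and BBC3 (PUMA), which encode BH3-only proteins, rose with 0.74 ± 0.25 and 0.52 ± 0.13, and APAF1, the apoptosome scaffold, fell with -0.70 ± 0.13. Without nitidine chloride replicate 1, 2 genes of this list were called in place of 4. BIK was low, at 1.35 ± 0.196 and 2.27 ± 0.524 CPM.

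Of 18 chromatin partners of pocket proteins 10 fell, 3 rose and 5 did not pass, where 27.0% of all tested genes were lower. The median log2 fold change was -0.31 and the median span 67.2 kb, against 0.01 and 27.3 kb over all tested genes. CTBP2, a corepressor, fell with -2.05 ± 0.11 and SMARCA2, an ATPase of the SWI/SNF remodeler that binds RB, with -1.50 ± 0.11. Both span 177 to 178 kb, in the class with 75.0% of genes lower. The histone methyltransferases KMT5C and SUV39H1 rose with 0.36 ± 0.10 and 0.32 ± 0.11. CTBP2 shares exon sequence with ZRANB1 on the opposite strand, which had a similar number of counts, so its value is uncertain.

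Of 13 E2F6 partners in the non-canonical polycomb complex, 4 rose, 4 fell and 5 did not pass (median -0.14). In all, 61.5% were called, against 51.7% of all tested genes. L3MBTL2, a chromatin-compacting subunit, and WDR5, a WD-repeat scaffold, rose with 0.57 ± 0.09 and 0.47 ± 0.08. MGA, the scaffold of that complex, fell with -0.75 ± 0.08, and TFDP1, counted above, is in this list too. MGA spans 152 kb, in the class of 100 to 200 kb, where 75.0% of genes were lower.

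Of 7 ubiquitin ligase subunits that act on the axis, 2 rose, 3 fell and 2 did not pass (median -0.16). Called genes made up 71.4% of this short list, against 51.7% of all tested genes. AMBRA1, the receptor that turns over D-type cyclins, fell with -1.37 ± 0.13, and CDC20, an activator of the anaphase-promoting complex, with -0.39 ± 0.07. AMBRA1 spans 198 kb, in the class of 100 to 200 kb, where 75.0% of genes were lower. MDM2, the ligase best known for p53, rose with 0.43 ± 0.13, and FZR1 (CDH1), the other activator of the anaphase-promoting complex, with 0.28 ± 0.08. FZR1 shares exon sequence with MFSD12 on the opposite strand, with 6159 and 5932 counts over the 6 libraries, so its value is uncertain. MDM2 shares exon sequence with a gene on the opposite strand with fewer counts. Of this list 2 genes were called without DMSO replicate 1 or nitidine chloride replicate 3, and 3 without DMSO replicate 2 or 3.

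**Figure D5:**
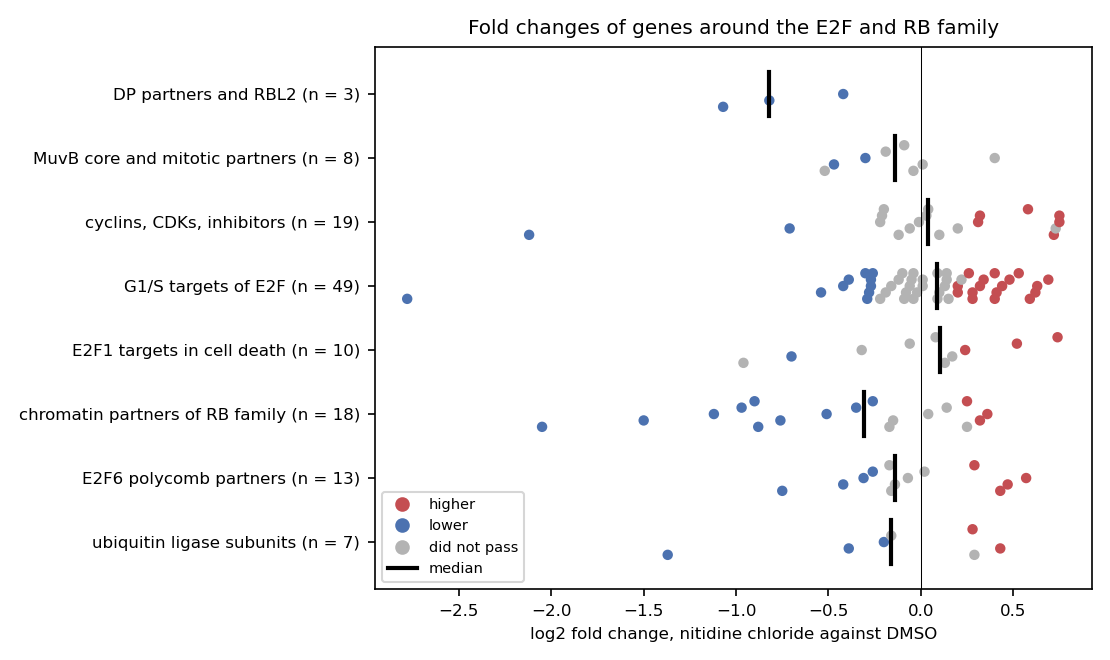
Log2 fold change, nitidine chloride against DMSO, of genes in 8 lists around the family. Each point is a gene, red higher, blue lower and grey not passing, and black bars are list medians. The DP partners and RBL2 and the chromatin partners have the lowest medians, -0.82 and -0.31.

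The 8 lists hold 121 distinct genes, of which 120 were tested. When libraries were scaled by size alone, the median of all tested genes moved from 0.01 to 0.12 on the log2 scale. Among called genes, 5140 were then higher and 3730 lower (57.9% higher), against 3936 and 4314 (47.7% higher) with TMM. Under that scaling E2F8 passed with 0.41 (adjusted p = 0.0148, edgeR), and every member called with TMM kept its direction and its call.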

How the data were processed

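Sequencing of mRNA from 6 HEK-293T libraries (DMSO or 10 µM nitidine chloride for 12 h, 3 each) was analysed from 1 deposited table. It held raw read counts per gene and FPKM, per the file headers. The authors' FPKM is scaled to a length that, for 86.2% of 12834 genes compared, equalled the sum of all distinct annotated exons within 0.5%. The submitters' processing notes list HISAT2 2.0.4 and StringTie 1.3.0 without saying what each did. Which counter, strand setting, build and annotation were used is not given in the sources used here. The members' positions in the table equalled those of GENCODE release 29 (GRCh38) except for RB1.

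Counts were tested with edgeR 4.0.16 (R 4.3.3): TMM scaling, a minimum mean of 10 counts, the quasi-likelihood test, Benjamini-Hochberg adjustment over all 15953 tested genes and a threshold of 0.05. CPM used the same TMM scaling. SE was derived from the log2 fold change and the F statistic of that test, and confidence intervals from that SE. The procedure was run on simulated data in which only a small share of genes changed. That run cannot show how TMM scaling and calls behave where 51.7% of tested genes are called. Results were recomputed with a replicate block, without each library in turn, with no filter, a mean of at least 50 counts, DESeq2 1.42.0, scaling by library size alone, limma-voom (limma 3.58.1), a threshold of 0.01 and a test against 1.5-fold. A span window in place of span classes was chosen after seeing the data. No 2 libraries of a group agreed within sampling noise, and pseudogene copies of the members had at most 14 counts in a library.

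Members and gene lists were chosen with earlier results of these data known. Named genes were the 10 members, the up to 2 most changed genes of each list in each direction among called genes with separated groups and a mean of at least 1 FPKM in the higher group, and the 3 genes nearest in pattern to the members with the highest and the lowest fold change. Levels of FOXM1 and CDK4, which were not called, were given outside this rule. Promoter windows came from RefSeq (GRCh38.p14), with entries for 8 members. A planned description of protein sequences was not done.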

Additional observations from a re-analysis of the deposited data

How the results depend on the processing

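E2F1, E2F2, E2F7, RB1 and RBL1 kept direction and call in all 13 alternatives other than the test against a 1.5-fold change. In that test 1 member was higher (E2F2), 1 lower (RB1), 11 list genes were called and 2833 genes in all, against 3, 3, 67 and 8250. It asks for a larger change by construction. At an adjusted p of 0.01, 42 list genes were called. Leaving out each library gave 3 to 4 members higher, 2 to 3 lower, 51 to 65 list genes called and 7057 to 7828 genes called in all. E2F3 kept its direction throughout and its call in 8 of 13, and E2F8 passed in 5 of 13. With a span window in place of classes, chosen after seeing the data, the distance from genes of similar span moved from -0.82 to -0.50 for RB1, from -0.48 to -0.18 for RBL1 and from 0.28 to 0.40 for E2F7. E2F6 ran from -0.10 to 0.23 as libraries were left out. For the E2F8 and E2F6 changes the cause was not tested. Replicate numbers showed no sign of pairing: deviations of same-numbered libraries correlated at -0.003, -0.066 and 0.039. With 3 libraries per group this cannot settle whether libraries were paired. With the replicate block 3 members were higher, 2 lower and 7555 genes called in all, and E2F3 had -1.13 with an adjusted p of 0.0528 (edgeR). In the promoters, 5 windows in place of 6 held an E2F match when only the 250 bases before the start were read. E2F8 had the fewest counts of the family, 259 to 481 per library, and depth was not tested as a limit.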
